A study of Mus musculus with 12 samples.

Results

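The livers described here are all 6 livers of mice given acetaminophen (APAP) and all 6 livers of mice given vehicle, that is 12 of the 12 livers of the series, pooled across both genotype labels. They were chosen by their treatment label alone, with the genotype label kept as a blocking term. Liver RNA was sequenced from male C57BL/6 mice whose labels give an age of 10 to 12 weeks (the study's methods give 8 to 12 weeks), with 3 mice in each of 4 groups, which cross the genotype label, WT or *Gna12* KO, with the injection, vehicle or APAP. All animals were fasted overnight. APAP was injected once into the peritoneum at 300 mg/kg and the livers were taken 6 h later. WT mice were littermates of the KO line, a whole-body deletion of *Gna12*, which encodes the G protein subunit Gα12. *Gna12* was counted at 34.8 to 66.7 CPM in the vehicle livers labelled WT and at 54.6 to 67.2 CPM in those labelled KO, so the deletion is not visible at the level of gene counts, and the livers are called "labelled KO" throughout. CPM are read counts relative to library size after TMM scaling, a correction for differences in library composition.

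APAP is detoxified in hepatocytes by glucuronidation and sulfation, and a part is oxidised, mainly by CYP2E1 in the hepatocytes around the central vein, to a reactive quinone imine. This product is bound by glutathione, and once glutathione is spent it binds to cellular proteins, injures mitochondria and activates the stress kinase JNK, which phosphorylates c-Jun. The transcription factor NRF2, the heat shock response, the integrated stress response and p53 are among the stress programs known in the injured liver. In whole tissue, fewer cells of a type and less RNA per cell cannot be told apart.

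The libraries held 49737950 to 53487025 counts with vehicle and 50422393 to 69566079 with APAP, a difference of 10017500 counts in the mean (exact permutation of treatment within each genotype label, two-sided p = 0.015, n = 6 per group, where 400 arrangements allow no p under 0.005). The number of genes with at least 1 count was 18849 to 19924 with vehicle and 20115 to 21265 with APAP (exact permutation p = 0.005, the smallest possible). The number of genes over 1 CPM, which depends less on depth, was 11899 to 12259 and 12109 to 12360 (exact permutation p = 0.41). The first principal component, with 63.0% of the variance of the 500 most variable genes, separated the treatments without overlap. A pair of livers stood apart from their groups. WT vehicle replicate 2 lay at -11.7 on the first component, where the other vehicle livers lay between -23.9 and -24.9, and its level of the acute phase gene *Saa1* was 4788 CPM, against 6.80 to 86.6 CPM in the other vehicle livers. WT APAP replicate 1 held 4731 CPM of the hemoglobin gene *Hba-a1*, against 44.6 to 170 CPM in the other 11 livers. Without both livers 18.6% of all genes tested were higher and 15.2% lower, and counts of gene lists without them are to be read against these shares. Of 54 lists, the 10 whose count of higher or lower genes then moved by over 1.5 times and by at least 2 genes are given below both ways.

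After APAP, 2307 of 16509 genes tested were higher (14.0%) and 1880 were lower (11.4%) at an adjusted p under 0.05 in edgeR's quasi-likelihood test. On quantile-normalized log2(TPM + 1) values with limma the split turned the other way, with 1944 higher and 2447 lower, that is 44.3% of the calls higher in place of 55.1%. The rises were the larger changes: 1050 of the higher genes were at least 2-fold up and 194 at least 16-fold, whereas 487 of the lower genes were at least 2-fold down and 2 at least 16-fold. The 6 APAP livers all lay above the 6 vehicle livers for 1173 genes (7.11%) and all below for 887 genes (5.37%). Summed over the genes called higher, 46493 to 59929 CPM were counted per vehicle liver and 103221 to 124702 CPM per APAP liver. Summed over the genes called lower, the values were 161750 to 185025 and 96766 to 115693 CPM, respectively. Among the 673 genes with a mean between 7 and 9 on the log2 CPM scale, 26.2% were lower and 9.51% higher. Over all genes tested the median log2 fold change was 0.01, so shifts of a list's median are read against a value close to 0. Counts of a list's called members with all livers are likewise to be read against 14.0% higher and 11.4% lower.

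Among the 44 gene lists the highest medians were those of AP-1 and ATF3 factors and of other genes of the immediate early response, which are switched on within minutes of a stimulus from factors already in the cell. Levels below are CPM, given as the lowest, the median and the highest of 6 livers, and log2 fold changes are APAP minus vehicle. The value after ± is an approximate standard error, the absolute log2 fold change divided by the square root of the test's F statistic. *Atf3* (gene ID 11910, chromosome 1 from 191170296 to 191183333), a stress-induced repressor and activator of the ATF and CREB family, was at 0.448, 0.638 and 3.63 CPM with vehicle and at 494, 588 and 671 CPM with APAP. The groups lay far apart, with a log2 fold change of 9.22 ± 0.55 (adjusted p = 4.67e-07). *Jun*, the c-Jun subunit of AP-1, went from 5.51, 9.93 and 45.6 to 872, 1492 and 1818 CPM (6.71 ± 0.52, adjusted p = 3.69e-06). *Fos*, its classical partner, went from 0.4695, 0.869 and 3.31 to 22.3, 162 and 268 CPM (6.93 ± 0.65, adjusted p = 1.70e-05), and the highest vehicle liver lay below the lowest APAP liver. *Fosb* went from 0, 0.0805 and 0.603 to 5.297, 16.9 and 37.8 CPM (6.77 ± 0.71, adjusted p = 4.30e-05). Of the 10 AP-1 and ATF3 factors tested, 8 rose and 0 fell, with a median log2 fold change of 4.74, or of 4.36 with *Fosl1*, which had no count with vehicle, set to its lower bound. *Batf* and *Batf3* did not pass. For *Atf3*, *Jun* and *Fos* the highest vehicle level was that of WT vehicle replicate 2, and without both livers that stood apart the count was again 8 of 10, with a median of 5.06.

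Other immediate early genes moved the same way. *Egr1*, a zinc finger factor induced by growth factors and injury, went from 3.46, 5.37 and 32.3 to 735, 1257 and 1882 CPM (7.00 ± 0.61, adjusted p = 9.59e-06). *Klf6* went from 3.37, 5.58 and 11.8 to 104, 159.9 and 186 CPM and *Csrnp1* from 10.2, 12.5 and 16.2 to 68.6, 98.2 and 153 CPM. *Ier2* went from 10.5, 15.2 and 23.6 to 84.9, 260.2 and 386 CPM, with a wide spread among the APAP livers, and *Ier5* from 1.88, 2.29 and 4.99 to 26.2, 27.9 and 35.2 CPM, with a narrow spread. Of the 18 genes of the list, 14 rose and 0 fell (median 3.24). *Klf2*, *Klf10*, *Nr4a2* and *Sik1* did not pass, with log2 fold changes between 0.06 and 0.71. The MAP kinase phosphatases, which switch off ERK, JNK and p38 and are themselves induced by them, rose in 9 of 10 cases (median 2.76). *Dusp5*, a nuclear ERK phosphatase, went from 0.199, 0.408 and 0.608 to 9.82, 17.1 and 43.97 CPM (5.72 ± 0.43, adjusted p = 3.20e-06). *Dusp1*, which acts on JNK and p38, went from 12.6, 18.3 and 39.00 to 91.6, 247 and 349 CPM, *Dusp10* from 0.823, 1.52 and 2.14 to 10.03, 11.9 and 13.5 CPM and *Dusp4* from 1.28, 1.59 and 1.95 to 11.2, 15.7 and 21.2 CPM. For each of these 4 phosphatases all APAP livers lay above all vehicle livers. *Dusp7* was the member that did not pass.

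**Figure D1:**
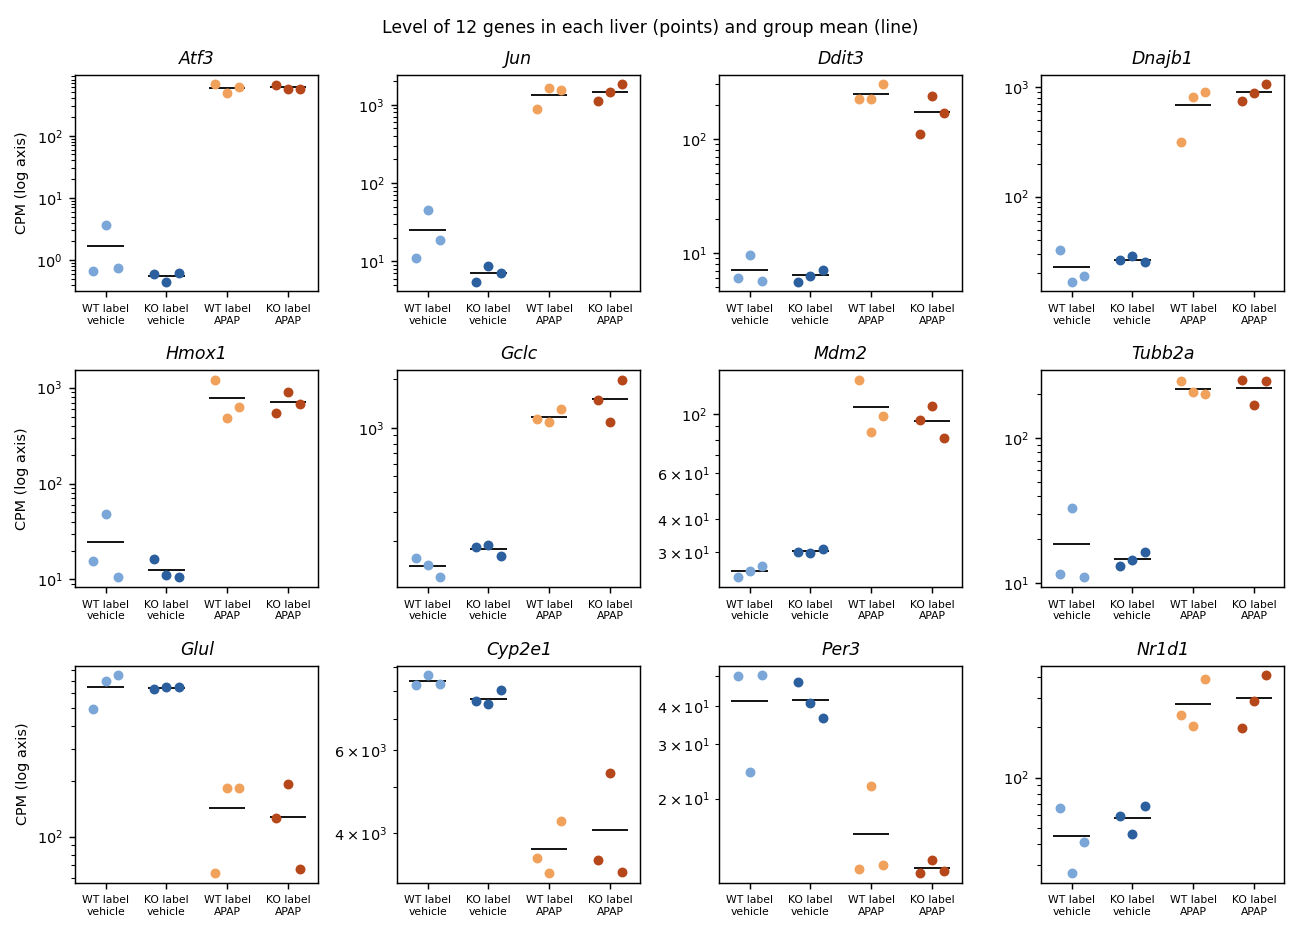
Level of 12 genes in each of the 12 livers, in CPM on a log axis, with 3 points per group and a line at the group mean. All 12 genes separate the 6 APAP livers from the 6 vehicle livers, whichever genotype label they carry.

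Heat shock genes, which encode chaperones that refold or hold damaged proteins, rose in 16 of 20 cases and fell in 0 (median 1.27). The list is named cytosolic in the figures. It also holds *Hspd1* and *Hspe1*, which encode mitochondrial chaperonins and were among those that rose (log2 fold changes 0.95 and 1.12). *Dnajb1*, the HSP40 partner of inducible HSP70, went from 16.7, 25.7 and 32.5 to 317, 852 and 1057 CPM (4.99 ± 0.28, adjusted p = 2.82e-07). *Hspa1a*, an inducible HSP70 gene whose reads are hard to tell from those of its near copy *Hspa1b*, went from 0.817, 10.7 and 16.7 to 74.9, 698 and 1578 CPM (6.45 ± 0.96, adjusted p = 0.000465). The lowest APAP liver in both was WT APAP replicate 1. *Hsp90aa1*, the inducible HSP90, went from 95.7, 144 and 235 to 447, 1316 and 1757 CPM, and *Hspa8*, the constitutive HSP70, from 953, 1149 and 1613 to 2411, 2762 and 3106 CPM (1.23 ± 0.14). *Bag3*, a co-chaperone that links HSP70 to autophagy, went from 19.2, 31.5 and 49.8 to 65.3, 383 and 499.6 CPM (3.32 ± 0.44, adjusted p = 0.000231). *Cryab*, *Stip1*, *Hspa4l* and *Chordc1* did not pass.

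The promoter windows of the RefSeq table (GRCm38.p6), which run from 250 bases before to 50 bases after each start of transcription, were searched on both strands for the heat shock element letters GAANNTTC. They were found in 11 of the 16 heat shock genes that had a window. Counted by gene in the same way, 7.11% of the 10978 protein-coding genes tested with a window held them. Counted by window, the share was 7.86% of all 32851 windows of this length. The window of *Bag3* is shown because it is the called heat shock gene with the smallest p whose window holds the letters. It lies at chr7:128523333-128523632 on the plus strand, with the match in capitals, starting at base 43 after the start.
Bag3: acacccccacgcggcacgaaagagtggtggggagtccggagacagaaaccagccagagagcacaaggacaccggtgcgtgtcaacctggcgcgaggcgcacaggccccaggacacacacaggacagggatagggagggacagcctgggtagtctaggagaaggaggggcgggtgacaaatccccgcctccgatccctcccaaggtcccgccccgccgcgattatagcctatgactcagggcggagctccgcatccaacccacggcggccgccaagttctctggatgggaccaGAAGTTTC

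Genes of the ubiquitin system and of the shuttle proteins of selective autophagy, which carry tagged cargo to the lysosome, moved in part. *Sqstm1*, which encodes the autophagy receptor p62, went from 289.6, 357 and 389.6 to 1736, 2158 and 2412 CPM (2.61 ± 0.13, adjusted p = 1.03e-07). *Zfand5* went from 25.9, 31.4 and 35.1 to 167, 211 and 286 CPM and *Zfand2a* from 8.91, 10.7 and 11.5 to 32.5, 128 and 173 CPM. Both encode zinc finger proteins that assist the proteasome. Of the 23 genes of the list 6 rose and 3 fell, *Calcoco1*, *Nbr1* and *Atg5* (median 0.02). Proteasome subunits rose in 11 of 33 cases and fell in 0 (median 0.28). *Psmd11*, of the regulatory lid, had the largest log2 fold change among them, 0.85 ± 0.11. Tubulins, the subunits of microtubules, rose in 9 of 13 cases (median 1.19). *Tubb2a* went from 10.98, 13.8 and 33.03 to 169, 228 and 252 CPM and *Tubb2b* from 2.296, 2.89 and 7.21 to 37.4, 48.98 and 60.5 CPM, although these genes are alike enough to share reads. *Tubb4b* went from 43.3, 56.5 and 63.98 to 100.2, 141 and 199.9 CPM.

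The integrated stress response, in which phosphorylated eIF2α favours translation of ATF4 and thereby amino acid and redox genes, rose in 11 of 15 tested members and fell in 1, *Vldlr* (median 1.33). *Ddit3* (gene ID 13198, chromosome 10 from 127290793 to 127296291), which encodes CHOP, went from 5.63, 6.19 and 9.599 to 110.5, 223 and 299.9 CPM (4.94 ± 0.23, adjusted p = 8.42e-08). *Ppp1r15a*, which encodes the phosphatase subunit GADD34 that reverses the signal, went from 7.89, 11.1 and 18.1 to 60.1, 93.6 and 110.1 CPM. *Gdf15*, a stress hormone, went from 1.46, 2.002 and 4.49 to 20.7, 44.8 and 265 CPM (4.73 ± 0.68, adjusted p = 0.000386), and *Fgf21*, a hepatokine, from 3.19, 7.01 and 16.4 to 17.6, 30.3 and 70.8 CPM (2.32 ± 0.36, adjusted p = 0.000672). In the unfolded protein response list, where chaperones of the endoplasmic reticulum are kept, 4 of 21 rose and 1 fell, *Edem1* (median 0.20). Over all genes tested 14.0% were higher and 11.4% lower, so 4 of 21 is not far from that share. *Hspa5*, which encodes GRP78, went from 342, 453 and 524 to 1210.2, 1549.9 and 1747 CPM (1.75 ± 0.14, adjusted p = 4.87e-06), and *Eif2ak3*, the PERK kinase, from 10.2, 13.01 and 15.7 to 27.3, 39.2 and 49.1 CPM. *Dnajb9* and *Ern1*, the gene of IRE1α, were the other members that rose. Without both livers that stood apart 6 rose and 0 fell.

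The CEBP-ATF element, a composite site bound by ATF4 with C/EBP proteins, was searched as TGATGNAA on both strands. It was found in 6 of the 16 genes of the integrated stress response that had a window. Counted by gene in the same way, 3.0% of the 10978 protein-coding genes tested with a window held it. Counted by window, the share was 3.97% of all windows. The window of *Fgf21* is shown as the called member with the smallest p that holds the letters. It lies at chr7:45615441-45615740 on the minus strand, and the match, in capitals, reads on the opposite strand and begins at position -139 from the start.
Fgf21: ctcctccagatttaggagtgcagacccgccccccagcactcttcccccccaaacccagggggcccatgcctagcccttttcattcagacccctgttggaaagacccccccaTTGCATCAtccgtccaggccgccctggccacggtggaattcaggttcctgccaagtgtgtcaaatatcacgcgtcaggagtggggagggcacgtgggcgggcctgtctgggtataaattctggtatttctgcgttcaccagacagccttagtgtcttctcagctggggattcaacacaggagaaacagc

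Cytosolic aminoacyl-tRNA synthetases rose in 13 of 20 cases and fell in 0 (median 0.58). *Sars* went from 35.4, 41.5 and 45.4 to 83.6, 91.8 and 111 CPM (1.21 ± 0.10, adjusted p = 6.23e-06) and *Cars* from 12.7, 15.04 and 19.8 to 29.4, 40.9 and 50.6 CPM. Among amino acid transporters 7 of 16 rose and 5 fell (median 0.27). The cystine importer *Slc7a11*, which supplies cysteine for glutathione, was at 0 in 5 of 6 vehicle livers and at 1.39, 2.799 and 6.56 CPM with APAP. Its partner chain *Slc3a2* went from 24.4, 28.9 and 32.8 to 58.01, 77.1 and 103 CPM, and the cationic amino acid importer *Slc7a1* from 0.359, 0.539 and 0.629 to 2.21, 4.04 and 9.91 CPM. Each of the 3 lay higher in all APAP livers than in all vehicle livers. The glutamate importer *Slc1a2*, known from hepatocytes next to the central vein, showed the largest fall among the genes named by abundance and separation, from 85.1, 177 and 226 to 4.84, 16.8 and 42.1 CPM (-3.32 ± 0.46, adjusted p = 0.000322). In serine, one-carbon and methionine metabolism 9 of 18 rose and 4 fell. *Psat1*, of serine synthesis, went from 0.354, 0.947 and 1.62 to 13.1, 27.4 and 41.9 CPM and *Mthfd2*, the mitochondrial folate enzyme, from 0.554, 0.984 and 1.11 to 4.96, 13.5 and 18.1 CPM. The 4 that fell were *Ahcy*, *Mthfd1*, *Shmt1* and *Shmt2*.

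NRF2 targets, which encode enzymes of glutathione supply, NADPH supply and quinone reduction, rose in 22 of 29 cases and fell in 2, *Mafg* and *Cat* (median 0.95, and 0.95 and 1.02 in the livers labelled WT and KO). *Srxn1*, sulfiredoxin, went from 24.5, 33.6 and 36.8 to 410.0, 567 and 1006 CPM (4.35 ± 0.20, adjusted p = 8.42e-08). *Gclc*, the catalytic subunit of the rate-limiting enzyme of glutathione synthesis, went from 119, 158 and 187 to 1080.1, 1217 and 1982 CPM (3.09 ± 0.16, adjusted p = 1.45e-07). *Hmox1*, heme oxygenase 1, went from 10.6, 13.4 and 48.2 to 485, 655 and 1204 CPM (5.38 ± 0.43, adjusted p = 4.87e-06), and *Pgd*, of the pentose phosphate pathway, from 12.96, 15.6 and 18.4 to 41.6, 59.96 and 74.1 CPM. For these 4 genes the groups did not overlap. The antioxidant response element letters TGACNNNGC lay in the windows of 10 of the 25 NRF2 targets that had one. Some of their matches can share bases with an AP-1 site. Counted by gene in the same way, 16.7% of the 10978 protein-coding genes tested with a window held them. Counted by window, the share was 12.4% of all windows.

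Among the 21 glutathione S-transferases, which conjugate glutathione to electrophiles, 2 rose and 4 fell (median 0.00). *Gsta1* went from 0.799, 1.43 and 2.39 to 33.1, 48.5 and 144 CPM (5.57 ± 0.47, adjusted p = 7.53e-06), and *Gm3776*, a copy in the same cluster, from 0.399, 0.882 and 1.28 to 31.3, 45.9 and 130.4 CPM. These copies can share reads, so the division between them is uncertain. Of iron and heme genes 6 of 20 rose and 3 fell. The ferritin chains *Ftl1* and *Fth1* went from 2686, 3358 and 3802 to 4699, 5261 and 5684 CPM and from 923, 1040.5 and 1251 to 1664, 1854 and 2266 CPM. *Aco1*, which encodes the iron sensor IRP1, went from 167, 196 and 209 to 121, 125 and 131 CPM and *Fech*, the last enzyme of heme synthesis, from 138, 149.7 and 168 to 98.8, 101 and 110.3 CPM, both lower after APAP without overlap. Among metallothioneins and zinc transporters 3 of 14 rose. *Mt1* went from 128, 204 and 2286 to 946, 1605 and 4968 CPM (2.03 ± 0.66, adjusted p = 0.0377), with overlap, and WT vehicle replicate 2 held the highest vehicle value. *Mt2* did not pass (adjusted p = 0.0782). Without both livers that stood apart 6 of 14 rose.

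**Figure D2:**
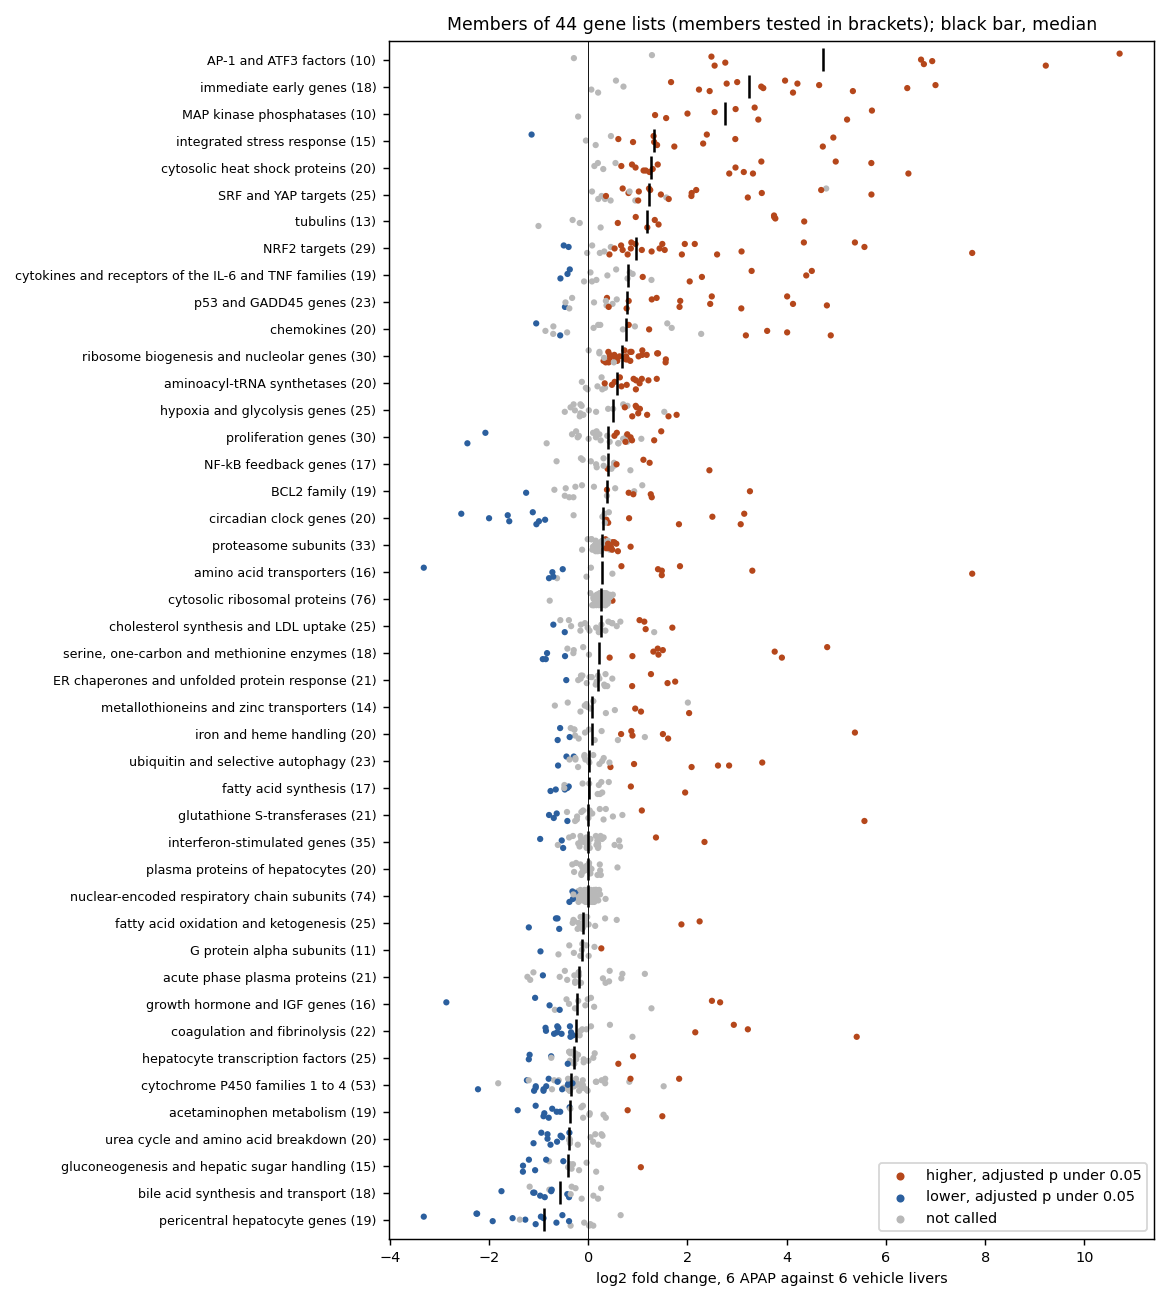
Log2 fold change of every tested member of 44 gene lists, APAP against vehicle over 12 livers, with lists ordered by their median (black bar) and the number of members tested in brackets. The AP-1 and ATF3 factors lie at the top with a median of 4.74 and the pericentral hepatocyte genes at the bottom with a median of -0.90.

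Genes that handle APAP itself were lower more often than higher, with 9 of 19 falling and 2 rising (median -0.36). *Cyp2e1*, the main oxidase of APAP, went from 7509.5, 8142 and 8648 to 3288, 3518 and 5348 CPM (-1.06 ± 0.14, adjusted p = 0.000262), the largest loss of CPM of all genes called lower. *Papss2*, which makes the sulfate donor, went from 100.2, 109 and 149 to 34.8, 37.5 and 57.9 CPM (-1.42 ± 0.15, adjusted p = 5.28e-05), and *Ugt1a6a*, a glucuronosyltransferase, from 89.3, 107 and 118 to 55.4, 73.9 and 83.5 CPM. *Ugdh*, which makes the glucuronic acid donor, went the other way, from 70.8, 98.7 and 113 to 219, 274 and 326 CPM (1.49 ± 0.14, adjusted p = 1.33e-05). Of 53 cytochrome P450 genes of families 1 to 4, 14 fell and 2 rose (median -0.34), and without both livers that stood apart 23 fell. *Cyp2a5* went from 597, 651 and 974 to 21.3, 106 and 401 CPM (-2.22 ± 0.62, adjusted p = 0.0188), *Cyp2d13* from 145, 207 and 222 to 68.5, 98.03 and 121 CPM and *Cyp4f15* from 119, 149 and 199.7 to 65.5, 83.9 and 97.8 CPM. Close paralogues of these P450 genes can share reads.

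Pericentral hepatocyte genes, which are kept on by Wnt signals from the central vein endothelium and mark the zone where APAP is oxidised, fell in 12 of 19 cases and rose in 0 (median -0.90). *Glul*, glutamine synthetase, went from 494, 650.1 and 751 to 63.7, 154 and 192 CPM (-2.25 ± 0.29, adjusted p = 0.000190), and *Oat*, ornithine aminotransferase, from 581, 736 and 909.8 to 167, 247 and 368 CPM (-1.52 ± 0.19, adjusted p = 0.000173). For both the groups did not overlap, and WT APAP replicate 1 was the lowest liver for *Glul*. *Lgr5* and *Notum* were also among the 12 that fell. *Axin2*, *Nkd1*, *Rnf43*, *Znrf3*, *Tbx3* and *Sp5* were among those that did not pass, with log2 fold changes between -1.38 and 0.65. Bile acid genes fell in 9 of 18 cases and rose in 0 (median -0.58), and in 13 without both livers that stood apart. *Akr1d1*, a steroid reductase of bile acid synthesis, went from 111, 128 and 142 to 23.8, 36.1 and 49.9 CPM (-1.75 ± 0.18, adjusted p = 3.60e-05). *Slc10a1*, the sodium-dependent bile acid importer NTCP, went from 538, 652 and 723 to 289, 362 and 396 CPM and *Slco1b2* from 587, 711 and 1035 to 267, 388 and 518 CPM.

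In gluconeogenesis and sugar handling 6 of 15 fell and 1 rose (median -0.41, and -0.65 without both livers that stood apart). *Pck1*, the rate-controlling enzyme of gluconeogenesis, went from 2932, 4425 and 6144 to 1282, 1726 and 2272 CPM (-1.31 ± 0.18, adjusted p = 0.000272) and *Gys2*, liver glycogen synthase, from 234, 309 and 445 to 105, 129 and 234 CPM. In the urea cycle and amino acid breakdown 9 of 20 fell and 0 rose (median -0.38). The mitochondrial aspartate carrier *Slc25a13* went from 239.7, 287 and 319 to 149, 156 and 188 CPM and *Hgd*, of tyrosine breakdown, from 421, 540.2 and 742 to 275, 321 and 392 CPM, while the cycle enzymes *Cps1* and *Otc* did not pass. Of 25 genes of fatty acid oxidation and ketogenesis 4 fell and 2 rose, near the shares of all genes tested, 11.4% lower and 14.0% higher. *Ppara*, the nuclear receptor of the fasting response, went from 298, 394 and 455 to 96.9, 175 and 199 CPM (-1.20 ± 0.17, adjusted p = 0.000396) and *Cpt1a* from 649, 742 and 863 to 428, 473 and 546 CPM. *Pdk4* went the other way, from 2.32, 3.02 and 9.16 to 15.3, 18.3 and 22.4 CPM, as did the lipid droplet gene *Plin2*, from 247, 342 and 498 to 559, 1177 and 2055 CPM. Both are known PPARα targets. In fatty acid synthesis 2 of 17 rose and 5 fell, and in cholesterol synthesis 4 of 25 rose and 2 fell. For cholesterol synthesis 3 rose and 5 fell without both livers that stood apart, and the median went from 0.25 to 0.12. *Elovl3* went from 28.7, 47.9 and 84.4 to 127, 207 and 262 CPM and *Sqle*, squalene epoxidase, from 5.296, 9.81 and 17.8 to 15.7, 35.5 and 54.4 CPM, the latter with overlap.

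Of 25 hepatocyte transcription factors 4 fell, *Ppara*, *Nr1i3*, *Nr0b2* and *Nr5a2*, and 2 rose, *Atf5* and *Cebpb* (median -0.28). There were 5 lower and 4 higher without both livers that stood apart. With all livers the counts of this list lay near the shares of all genes tested, 11.4% lower and 14.0% higher. *Nr1i3*, the xenobiotic receptor CAR, went from 259, 349 and 420.1 to 119, 153 and 184 CPM (-1.18 ± 0.15, adjusted p = 0.000147). *Hnf4a* and *Cebpa* did not pass. In the growth hormone axis 4 of 16 fell and 2 rose, beside the same shares of all genes tested. *Ghr*, its receptor, went from 273, 312 and 353 to 140.3, 180.2 and 223 CPM and *Igfals*, which stabilises IGF-1 in plasma, from 84.3, 108 and 135 to 36.6, 51.8 and 62.9 CPM. *Socs1*, an inhibitor of cytokine receptors, went from 0.0389, 0.126 and 0.503 to 0.6997, 1.14 and 1.73 CPM.

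Circadian clock genes split by their place in the loop, with 7 of 20 rising and 8 falling. The activators *Arntl* (BMAL1), *Clock* and *Npas2* rose. *Arntl* went from 0.722, 2.13 and 6.64 to 8.64, 21.9 and 26.8 CPM (3.07 ± 0.44, adjusted p = 0.000382). Its repressor *Nr1d1* (REV-ERBα) also rose, from 27.00, 52.7 and 67.5 to 198, 263 and 408 CPM (2.50 ± 0.26, adjusted p = 3.60e-05). *Per3* went from 24.4, 44.4 and 50.3 to 11.5, 12.02 and 21.99 CPM (-1.62 ± 0.21, adjusted p = 0.000175) and the output gene *Usp2* from 26.5, 62.6 and 84.8 to 4.48, 11.6 and 15.97 CPM (-2.56 ± 0.34, adjusted p = 0.000237). *Per2*, *Dbp*, *Tef*, *Hlf* and *Ciart* were also among the members that fell. The median, 0.31, was 0.03 without both livers that stood apart. The hour of the day at which each liver was taken is not given in the sources used here.

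The E-box letters CACGTG, bound by BMAL1 and CLOCK, lay in the windows of 5 of the 17 clock genes that had one. Counted by gene in the same way, 11.2% of the 10978 protein-coding genes tested with a window held them. Counted by window, the share was 7.15% of all windows. The D-box letters TTATGTAA, bound by DBP, TEF and HLF and opposed by NFIL3, lay in 1 of 17. Their share was 0.829% by gene, over the same protein-coding genes, and 0.938% of all windows. The windows of *Tef* and *Per3*, both lower after APAP, are shown as the called clock genes with the smallest p for each motif, with the match in capitals. *Tef* has 2 windows in the table, of which the one with the match is shown.
Tef, chr15:81802423-81802722, plus strand, E-box from position -127: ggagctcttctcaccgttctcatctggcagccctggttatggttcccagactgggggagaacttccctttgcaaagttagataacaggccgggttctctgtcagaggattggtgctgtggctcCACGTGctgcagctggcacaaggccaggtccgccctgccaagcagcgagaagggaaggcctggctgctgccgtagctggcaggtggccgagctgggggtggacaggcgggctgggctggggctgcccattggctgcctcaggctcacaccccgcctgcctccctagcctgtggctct
Per3, chr4:151044616-151044915, minus strand, D-boxes from positions -205 and -158: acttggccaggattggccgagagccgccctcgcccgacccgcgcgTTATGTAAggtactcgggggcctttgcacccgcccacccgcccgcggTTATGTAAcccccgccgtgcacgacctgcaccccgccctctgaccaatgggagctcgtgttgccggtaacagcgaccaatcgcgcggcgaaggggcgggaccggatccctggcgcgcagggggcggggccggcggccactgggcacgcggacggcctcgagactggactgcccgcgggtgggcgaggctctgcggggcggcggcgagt

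The lists of secreted plasma proteins of the liver differed in how many members passed. Of 20 plasma protein genes of hepatocytes, among them albumin and the apolipoproteins, 0 passed in either direction (median -0.01). Acute phase genes, which hepatocytes raise on IL-6 signals, gave 0 higher and 1 lower, *Crp*, of 21 with all 12 livers (median -0.19). Without both livers that stood apart 9 rose and 1 fell, with a median of 0.75. In WT vehicle replicate 2 this list lay 2.48 above the mean of the vehicle livers on the log2(CPM + 1) scale. In coagulation and fibrinolysis 11 of 22 fell and 4 rose. *F7* went from 79.96, 89.2 and 108 to 39.3, 48.5 and 65.5 CPM (-0.85 ± 0.11, adjusted p = 0.000200) and *Pros1*, protein S, from 37.5, 45.9 and 60.5 to 20.3, 25.4 and 30.3 CPM. *Thbd*, *Procr* and *Plaur*, which are mainly genes of endothelium and leukocytes, were among the members that rose.

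Inflammatory genes moved in part. Of the NF-kB feedback genes 5 of 17 rose and 0 fell. *Nfkbiz* went from 10.5, 13.7 and 17.6 to 29.7, 71.9 and 125 CPM (2.44 ± 0.28, adjusted p = 7.61e-05), while *Nfkbia* and *Tnfaip3*, classical early targets, did not pass. In the list named cytokines and receptors of the IL-6 and TNF families, 6 of 19 tested genes rose and 3 fell. The list also holds genes of the IL-1 family, among them *Il1b* and *Il1rap*, and the signalling genes *Socs3* and *Stat3*. *Tnfrsf12a*, the receptor Fn14 of the cytokine TWEAK, went from 3.29, 4.17 and 5.91 to 54.4, 78.4 and 143 CPM (4.39 ± 0.29, adjusted p = 1.12e-06) and *Clcf1* from 0.338, 0.589 and 0.857 to 1.32, 2.499 and 3.701 CPM. *Il6ra*, *Lifr* and *Il1rap*, all receptor chains, were the 3 that fell. Of 20 chemokines 6 rose and 2 fell, beside 14.0% higher and 11.4% lower of all genes tested. *Cxcl10* went from 0.539, 1.42 and 2.38 to 3.72, 16.4 and 32.5 CPM, and *Cxcl12*, which is made constitutively in the liver, from 242, 256 and 277 to 96.9, 114 and 191 CPM (-1.05 ± 0.16, adjusted p = 0.000632). Few interferon-stimulated genes passed, with 2 of 35 higher, *Rsad2* and *Oasl1*, and 3 lower (median 0.00). These counts were 5 and 2 without both livers that stood apart.

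Genes of the p53 and GADD45 response, which arrest the cell cycle and repair DNA, rose in 14 of 23 cases and fell in 1, *Ccng1* (median 0.77). *Mdm2*, the ubiquitin ligase of p53, went from 24.1, 28.2 and 30.9 to 80.9, 96.6 and 135 CPM (1.85 ± 0.13, adjusted p = 2.51e-06). *Cdkn1a*, the cell cycle inhibitor p21, went from 2.75, 5.53 and 29.1 to 63.5, 148 and 218 CPM (4.01 ± 0.53, adjusted p = 0.000218) and *Gadd45b* from 1.19, 2.34 and 2.85 to 13.6, 17.5 and 24.3 CPM. *Trp53* itself did not pass. In the BCL2 family, most of whose listed members encode promoters of apoptosis, 6 of 19 rose and 1 fell, *Bmf*, itself such a promoter (median 0.38). Without both livers that stood apart 6 rose and 4 fell, with a median of 0.20. *Bcl2l11*, which encodes the death promoter BIM, went from 4.67, 7.51 and 8.62 to 11.7, 17.1 and 24.01 CPM and *Mcl1*, a survival gene, from 58.1, 68.9 and 104 to 114, 143 and 161 CPM. Of 30 proliferation genes 8 rose and 2 fell. *Tk1* went from 19.1, 33.97 and 46.1 to 3.98, 5.33 and 9.22 CPM (-2.44 ± 0.26, adjusted p = 5.28e-05) and *Birc5* from 1.696, 2.36 and 3.23 to 0.285, 0.488 and 1.06 CPM, both lower, while *Pcna*, the replication clamp, went from 10.4, 12.8 and 15.8 to 16.7, 21.4 and 27.2 CPM. *Mki67* and *Top2a* did not pass.

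Targets of SRF and YAP, which answer to actin dynamics and cell tension, rose in 16 of 25 cases and fell in 0 (median 1.23, and 1.03 without both livers that stood apart, where again 16 rose). *Ccn1* went from 1.28, 2.16 and 3.25 to 37.6, 95.4 and 288 CPM (5.71 ± 0.51, adjusted p = 1.10e-05) and cytoplasmic actin *Actg1* from 32.2, 37.1 and 49.5 to 90.6, 314 and 1597 CPM (3.50 ± 0.60, adjusted p = 0.00120). The highest value of *Actg1* was that of WT APAP replicate 1. *Srf* itself went from 7.98, 9.23 and 10.6 to 16.4, 23.7 and 46.99 CPM and *Vcl*, vinculin, from 25.2, 27.5 and 37.8 to 46.7, 66.1 and 88.2 CPM. Of 25 hypoxia and glycolysis genes 9 rose and 0 fell. *Ndrg1* went from 6.94, 7.69 and 16.6 to 18.2, 30.1 and 42.3 CPM and *Aldoa* from 66.1, 90.1 and 95.04 to 144, 156 and 205 CPM, whereas *Gapdh*, *Pgk1* and *Ldha* did not pass.

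Ribosome biogenesis and nucleolar genes rose in 25 of 30 cases and fell in 0 (median 0.68). *Nop56*, of the box C/D snoRNP, went from 14.8, 16.98 and 19.2 to 38.3, 52.1 and 64.8 CPM (1.56 ± 0.13, adjusted p = 8.73e-06) and *Gnl3*, nucleostemin, from 17.99, 19.8 and 29.2 to 41.2, 60.3 and 63.5 CPM. Of 76 cytosolic ribosomal proteins 1 rose, *Rpl12*, and 0 fell. Their median was 0.25 with all livers and 0.09 without both livers that stood apart. WT APAP replicate 1 lay 1.09 above the vehicle mean on the log2(CPM + 1) scale for this list, against -0.09 to 0.18 in the other APAP livers. Under the WT label the medians of ribosome biogenesis and of ribosomal proteins were 0.43 and 0.47, and under the KO label 0.94 and 0.04. Of 74 nuclear-encoded respiratory chain subunits 0 rose and 4 fell, 3 of which encode succinate dehydrogenase, *Sdha*, *Sdhb* and *Sdhc* (log2 fold changes -0.31 ± 0.09, -0.38 ± 0.13 and -0.32 ± 0.10). The median of this list was -0.02, with WT APAP replicate 1 at 0.75 above the vehicle mean on the log2(CPM + 1) scale and the other APAP livers between -0.38 and -0.085. Without both livers that stood apart 0 rose and 7 fell, with a median of -0.20. Of 11 G protein alpha subunits tested *Gna13* rose and *Gna14* fell. *Gna12* was at 34.8, 64.97 and 67.2 CPM with vehicle and 23.7, 47.3 and 58.1 CPM with APAP (-0.38 ± 0.21, adjusted p = 0.199), with overlap and with its lowest value in each group in WT vehicle replicate 2 and WT APAP replicate 1.

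**Figure D3:**
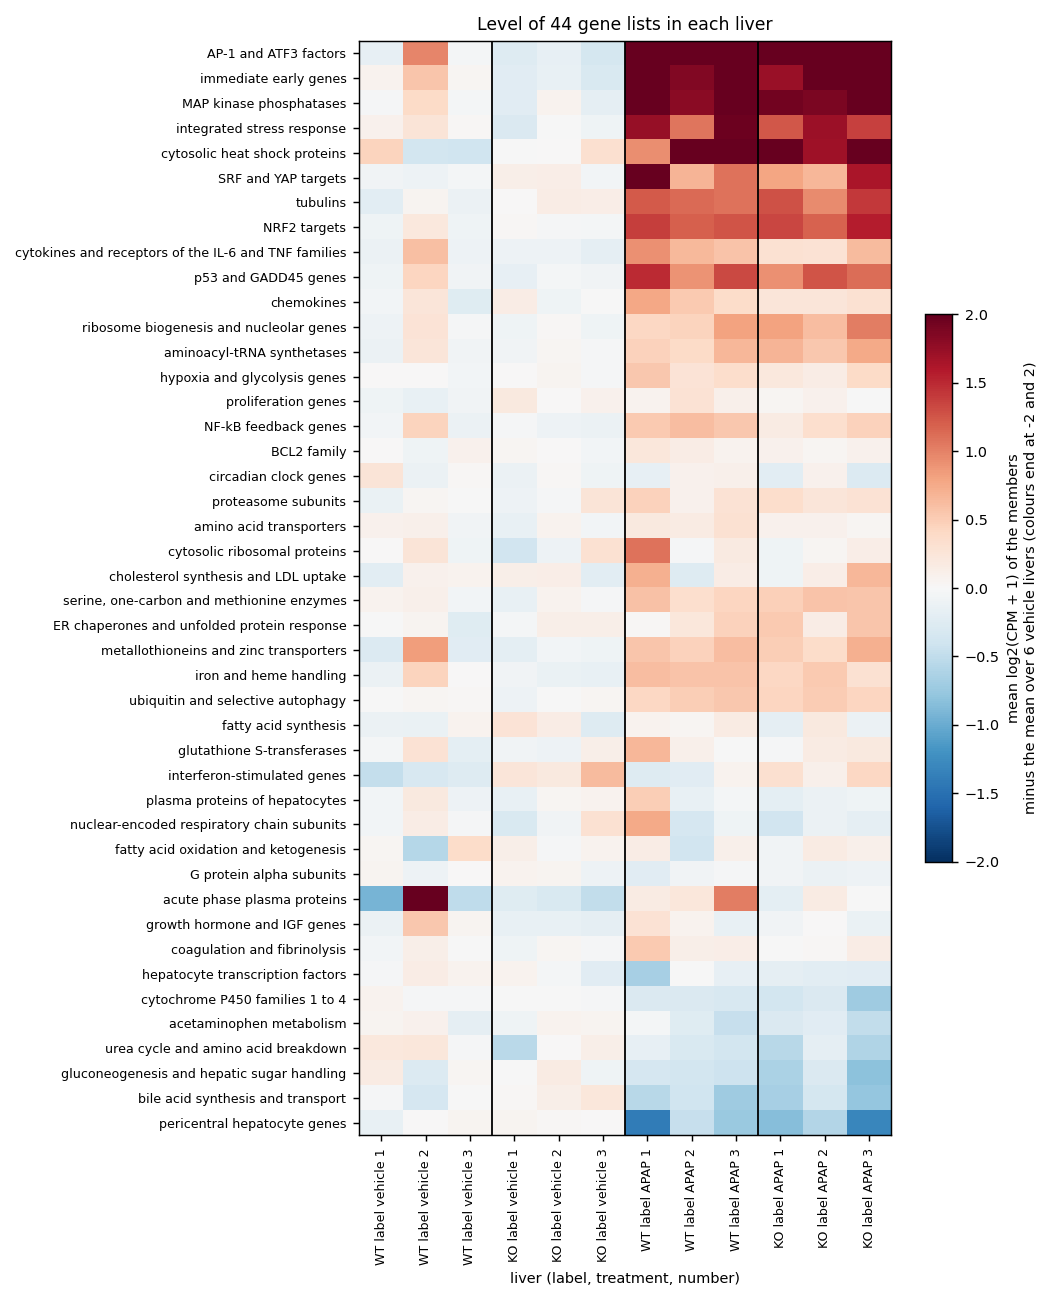
Mean log2(CPM + 1) of the members of 44 gene lists in each of the 12 livers, minus the mean of the 6 vehicle livers, in the order of the median log2 fold change. The columns of WT vehicle replicate 2 in the acute phase list (2.48) and of WT APAP replicate 1 in the ribosomal protein list (1.09) depart from the other livers of their treatment.

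Some genes had no count in any vehicle liver. For 52 of 45777 genes all 6 vehicle libraries were at 0 and every APAP library was above 3 counts. Of the 45777 genes, 19370 had no count in any library. Some of the 52 did not pass the expression filter. The APAP libraries were deeper on average, and the reverse case, genes at 0 in every APAP library, was not counted. *Sprr1a* (gene ID 20753, chromosome 3 from 92483954 to 92485881), a cornified envelope gene induced in injured nerve and heart, had 288 to 3960 counts and was at least 506-fold higher, taking 3 counts in each vehicle library as the limit. *Areg*, which encodes the EGF receptor ligand amphiregulin, had 112 to 176 counts and was at least 38.8-fold higher, with little spread. *Fosl1*, which encodes the AP-1 subunit FRA-1, had 47 to 664 counts and was at least 62.1-fold higher. *Lor*, another cornified envelope gene, was not at 0 with vehicle and went from 0.147, 0.294 and 0.565 to 6.81, 16.4 and 37.01 CPM (5.84 ± 0.46, adjusted p = 4.14e-06). *Areg* and *Fosl1* were named after their values were seen, *Fosl1* as a member of the AP-1 list.

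Further genes with the largest falls among abundant genes whose groups did not overlap were *Map2k6*, a kinase of the p38 pathway, from 8.17, 28.2 and 50.4 to 1.69, 3.58 and 6.28 CPM, and the noncoding RNA *C730036E19Rik*, from 51.7, 74.00 and 82.7 to 4.81, 10.01 and 19.6 CPM. *Ido2*, of tryptophan breakdown, went from 69.7, 107 and 115 to 18.8, 23.3 and 36.98 CPM (-2.05 ± 0.18, adjusted p = 1.10e-05). *Upp2*, uridine phosphorylase, went from 357, 629 and 759 to 52.3, 125 and 266 CPM, and *Gm38455* from 17.7, 30.8 and 43.2 to 3.898, 4.55 and 16.9 CPM. By lost abundance, *Mug1*, a plasma protease inhibitor, went from 5857, 7781 and 8157 to 3724, 4874 and 5704 CPM and *Selenop*, the plasma selenium carrier, from 4974, 5356 and 6566 to 3544, 3681 and 5354 CPM. The values of *Selenop* overlapped between treatments.

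Markers of liver cell types were summed per liver beside these changes. The 10 hepatocyte markers summed to 80560 to 110200 CPM with vehicle and 92900 to 152000 CPM with APAP, with 0 of 10 called. Without WT APAP replicate 1 the highest sum with APAP was 109300 CPM. Of 9 Kupffer cell, 9 monocyte and 12 tested lymphocyte markers 0 were called in either direction. The 14 neutrophil markers summed to 3.89 to 976 CPM with vehicle, highest in WT vehicle replicate 2, and to 21.9 to 196 CPM with APAP. *Cxcr2* was the 1 of 8 tested neutrophil markers that rose, with 2 markers at 0 in every liver, and 6 of 8 rose without both livers that stood apart. Of 12 sinusoidal endothelial markers 4 rose and 0 fell, and 3 rose and 3 fell without both livers that stood apart. Their medians were 0.21 under the WT label and -0.14 under the KO label. *Lyve1*, a hyaluronan receptor of these cells, went from 7.82, 11.4 and 13.1 to 19.3, 22.96 and 25.8 CPM (1.09 ± 0.13, adjusted p = 9.23e-05). Of 6 cholangiocyte markers tested 2 rose, *Sox9*, from 1.32, 2.04 and 6.16 to 16.2, 22.3 and 37.9 CPM (3.20 ± 0.32, adjusted p = 2.59e-05), and *Epcam*. *Krt19* did not pass. Of 12 stellate cell markers 1 rose and 1 fell. The erythroid markers summed to 17370 CPM in WT APAP replicate 1 and to 253 to 749 CPM in the other 11 livers. Of the platelet markers 2 of 3 tested rose, with their highest sum, 21.95 CPM, in the same liver. Without that liver their highest sum was 5.14 CPM with APAP, against 4.54 CPM with vehicle. Without both livers that stood apart 1 of 3 rose. The part of these cells in the changes above was not tested.

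The fold changes were then fitted within each label, on 6 livers that share no animal with the other 6. Under the WT label 280 genes were called (1.70%), 221 higher and 59 lower. This number was 44 without WT vehicle replicate 1, 41 without WT vehicle replicate 3 and 54 without WT APAP replicate 3, and at most 378 with another liver left out. Under the KO label 3530 genes were called (21.4%), 2059 higher and 1471 lower, with 1958 called without KO-labelled vehicle replicate 2 and 2033 without KO-labelled APAP replicate 3. Of the 280 genes 277 (98.9%) moved the same way under the KO label and 259 (92.5%) were also called there. Of the 3530 genes 3316 (93.9%) moved the same way under the WT label and 259 (7.34%) were called there, where 39 to 332 genes were called under both labels with 1 liver left out. Over all 16509 genes 71.2% had the same sign, and among the 12958 genes called under neither label 65.0%. Across all genes, which are not independent replicates, the log2 fold changes had a Pearson r of 0.70 and a Spearman rho of 0.59. By mean level the Pearson r was 0.67 for 5412 genes up to 1 on the log2 CPM scale, 0.77 for 7623 genes between 1 and 5, and 0.83 for 3474 genes above 5.

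Among the genes called under the WT label the median absolute log2 fold change was 2.08 under the WT label, and their median in the same direction was 1.83 under the KO label, with a median ratio of 0.97. Among the genes called under the KO label the medians were 0.93 under the KO label and 0.64 under the WT label, with a median ratio of 0.72. Each list was chosen on the values of its own label, so these ratios are a description. The biological coefficient of variation, which measures spread among livers of one group, was 0.345 in the livers labelled WT and 0.234 in those labelled KO. With both labels in a single fit that shares the spread over 12 livers, 1523 genes were called under the WT label and 2249 under the KO label. No gene called under both labels had opposite signs. The 3 genes called under the WT label with the opposite sign under the KO label, *Cd9*, *E130102H24Rik* and *Gm11814*, had adjusted p under the KO label of 0.627, 0.325 and 0.839.

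**Figure D4:**
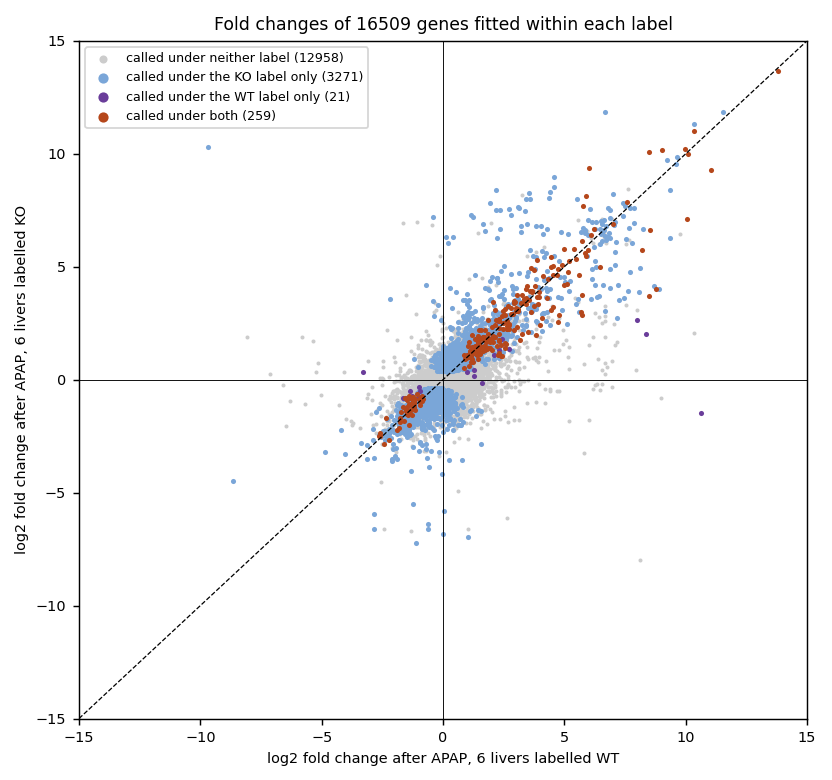
Log2 fold change after APAP of 16509 genes in the 6 livers labelled WT (horizontal axis) and in the 6 livers labelled KO (vertical axis), fitted separately, with a dashed line of equal change. The 259 genes called under both labels moved the same way under each, and the Pearson r over all genes is 0.70.

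Some of the genes above are given here side by side under each label. *Atf3* rose by 8.47 under the WT label and by 10.09 under the KO label on the log2 scale. The values were 5.13 and 4.76 for *Ddit3*, 4.91 and 5.08 for *Dnajb1*, and 3.08 and 3.11 for *Gclc*. *Glul* gave -2.17 and -2.32, *Cyp2e1* -1.18 and -0.92, and *Nr1d1* 2.64 and 2.38. By list, the medians under the WT and KO labels were 0.70 and 0.64 for p53 and GADD45 genes and -0.40 and -0.64 for bile acid genes. In 9 of 44 lists the medians lay over 0.5 apart. Higher under the WT label were those of the SRF and YAP targets (1.62 and 0.89), hypoxia and glycolysis genes (0.82 and 0.12), proliferation genes (0.73 and 0.09), chemokines (1.14 and 0.50), amino acid transporters (0.71 and 0.10) and interferon-stimulated genes (0.35 and -0.16). Higher under the KO label were those of acute phase genes (-0.59 and 0.14), AP-1 and ATF3 factors (4.01 and 4.66) and ribosome biogenesis (0.43 and 0.94). In 9 of 44 lists the medians had opposite signs. These were acute phase and interferon-stimulated genes, the respiratory chain (0.18 and -0.23), metallothioneins and zinc transporters (-0.06 and 0.32), iron and heme genes, glutathione S-transferases, plasma proteins of hepatocytes, clock genes and fatty acid synthesis, the last 5 with both medians between -0.14 and 0.13. The differences between labels in these lists were not tested. Both livers that stood apart carry the WT label. Levels that follow are log2(CPM + 1) minus the vehicle mean. SRF and YAP targets lay at 2.265, 0.686 and 1.085 in WT APAP livers and at 0.791, 0.667 and 1.629 in KO-labelled ones. The respiratory chain lay at 0.75 in WT APAP replicate 1 and at -0.33 and -0.085 in the other WT APAP livers. WT vehicle replicate 2 lay at 2.48 for acute phase genes and 0.98 for AP-1 and ATF3 factors, above every other vehicle liver.

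A test of the label by treatment interaction on 12 livers called 0 genes in edgeR's quasi-likelihood test (smallest adjusted p = 0.847), and 848 genes (5.14%) had an unadjusted p under 0.05. DESeq2's Wald test called 9. Among the genes called in the pooled comparison 183 (4.37%) had an unadjusted interaction p under 0.05. The 5 genes with the smallest interaction p were *Cd9*, *Map3k5*, *Hsd3b5*, *L3mbtl1* and *AY036118*. *Cd9*, a tetraspanin, gave a log2 fold change of 1.59 under the WT label and -0.13 under the KO label. *Map3k5*, which encodes the JNK pathway kinase ASK1, gave -0.37 and 0.84, and *Hsd3b5*, a male-specific steroid enzyme, 0.49 and -1.08. *L3mbtl1*, with all vehicle livers labelled KO at 0, was at 0, 0.0188 and 0.0998 CPM with vehicle and 0.278, 0.455 and 0.911 CPM with APAP. *AY036118* was at 0 in some livers of both treatments, and no fold is given for either gene. A p that misses the threshold does not show that the labels act alike.

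Motif letters were also counted over the 13717 protein-coding genes tested, of which 80.0% had a window in the RefSeq table. Over all 16509 genes tested 73.7% had one and of the protein-coding genes called lower 79.5%, both under 80%, so no share is read for these. Among 1613 protein-coding genes called higher with a window, 9.24% held the AP-1 letters TGANTCA and 6.79% of all 10978 with a window did. Among the 293 of them at least 4-fold higher the share was 16.7%. What part of the genes at least 4-fold higher had a window was not counted, so their shares here and below carry that limit. The TATA box letters TATAAA lay in 23.5% of the genes at least 4-fold higher and in 9.78% of all. The cAMP response element TGACGTCA lay in 4.90%, 5.80% and 3.38%, respectively, and the CEBP-ATF element in 3.97%, 6.83% and 3.00%. For the kappa-B site the shares were 6.70%, 7.17% and 6.11%, and for the CArG box 2.29%, 2.73% and 1.56%. None of the 9 AP-1 and ATF3 factors with a window held the AP-1 or the cAMP response element letters there. A match is a description of the letters in these windows, not of binding.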

How the data were processed

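Poly-A selected, strand-specific liver RNA libraries were sequenced in paired reads of 100 bases. Per the labels and the study's methods, the authors trimmed reads with Trimmomatic 0.38, aligned them to mm10 (GRCm38) with HISAT2 2.1.0 and Bowtie2 2.3.4.1 and assembled and quantified genes with StringTie 2.1.3b. The deposited table holds raw read counts per gene, which were used for all tests. It also holds TPM computed by the authors, used in an alternative, and FPKM computed by the authors, not used for results.

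All 12 livers were mapped by their titles. Of 45777 genes, 19370 had no count in any library and 16509 passed edgeR's expression filter over the 4 groups. The libraries' depth is given in the report. Counts were TMM-scaled and fitted with edgeR 4.0.16 (R 4.3.3), quasi-likelihood test, with terms for genotype label and treatment, and adjusted by Benjamini-Hochberg over all genes at 0.05. The interaction and separate fits within each label used the same test. DESeq2 1.42.0 and limma 3.58.1 served as alternatives. The fit was tested on simulated data. The labels do not say more than separate livers of separate mice, so p-values measure the spread between these 3 livers per group. Replicates of a group differed beyond sampling noise.

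The members and lists were chosen with earlier results of these data known. Named genes were the 10 largest changes in each direction among called genes with a mean log2 CPM of at least 3 and no overlap, the 5 largest differences in CPM in each direction, up to 4 members of each list (3 of each marker list) with the smallest p, the 5 smallest interaction p and *Gna12*. Other genes named as not passing, or as the remaining called members of a list, were named after their values were seen, as was *Saa1*. Some genes that this rule names are not reported here. Promoter windows came from RefSeq. Their planned comparison over all genes was void, with 73.7% matched, and the restriction to protein-coding genes and the subset at least 4-fold higher were chosen after seeing the data. Gene positions are those of RefSeq on GRCm38. The list counts and medians without both livers that stood apart and the counts within each label with 1 liver left out were also added after seeing the data.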

Additional observations from a re-analysis of the deposited data

Results flagged for a closer look

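Within the 6 livers of each treatment, a liver was called far from the others where its gap to the nearest liver, divided by the range of the 6, was above Dixon's 95% critical value for 6 samples. This held in 36 of 272 groups of 6 looked at (13.2%). Dixon's value assumes normal, independent measurements. CPM need not be normal, some are mostly at 0, and the genes were chosen from these data. No chance rate is therefore set beside 13.2%. WT vehicle replicate 2 was the liver in 16 of these 36 groups and WT APAP replicate 1 in 9. Values below are CPM. WT vehicle replicate 2 stood apart with *Arntl* at 6.64, *Atf3* at 3.63, *Cdkn1a* at 29.1, *Cyp2d13* at 145, *Hmox1* at 48.2, *Ier5* at 4.99, *Jun* at 45.6, *Klf6* at 11.8, *Mt1* at 2286, *Mt2* at 2120.0, *Ndrg1* at 16.6, *Saa1* at 4788, *Sox9* at 6.16, *Tubb2a* at 33.0, *Tubb2b* at 7.21 and the first principal component at -11.75. WT APAP replicate 1 stood apart with *Actg1* at 1597, *Ccn1* at 288, *Gdf15* at 265, *Gm38455* at 16.9, *Hba-a1* at 4731, *Mt1* at 4968, *Ppara* at 96.9, *Selenop* at 5354 and *Srf* at 47.0. KO-labelled APAP replicate 3 stood apart with *Aldoa* at 205 and *Map3k5* at 97.4. WT vehicle replicate 3 stood apart with *Fgf21* at 16.4 and *Pdk4* at 9.16. WT APAP replicate 2 stood apart with *Gnl3* at 41.2 and *Per3* at 21.99. KO-labelled vehicle replicate 3 stood apart with *Hba-a1* at 170.4 and *Selenop* at 6566. KO-labelled vehicle replicate 2 stood apart with *Fosb* at 0.604. WT APAP replicate 3 stood apart with *Saa1* at 697. KO-labelled vehicle replicate 1 stood apart with *Slc7a11* at 0.0672. Counts and medians of the gene lists with and without WT vehicle replicate 2 and WT APAP replicate 1 are given in the report. No gene named above passed edgeR's quasi-likelihood test of a difference between the labels on all 12 livers.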

How the results depend on the processing

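The numbers of genes called higher and lower stayed within 1.5 times of 2307 and 1880 under other size factors, DESeq2's Wald test, the newer quasi-likelihood method, other filters, limma on log2(TPM + 1) or log2(TPM + 0.1), without the label term and in the livers labelled KO. In the livers labelled WT they fell to 221 and 59. With 1 liver left out they ranged from 1895 to 2635 higher and from 1315 to 2135 lower, and without both livers that stood apart they were 3070 and 2514. No call turned its direction under any of these settings. With the replicate block 1991 genes were higher and 1541 lower. Same-numbered livers correlated between -0.386 and 0.181, with 1 of 18 pairs over 0.1, so the numbers do not pair the livers. For the interaction, DESeq2's Wald test called 9 genes in place of 0, and leaving out 1 liver gave 0 to 2 calls, with 2 without WT vehicle replicate 1, 1 without KO-labelled APAP replicate 1 and 1 without KO-labelled APAP replicate 3. The share of genes called under the WT label that moved the same way under the KO label was 93.2% to 100% with 1 liver left out. WT calls then ranged from 41 to 378 genes and KO-label calls from 1958 to 3332. The cause was not tested.

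Genes that changed sign were *Cd9* (-0.13 in the livers labelled KO), *Map3k5* (-0.372 in the livers labelled WT) and *Hsd3b5* (0.486 in the livers labelled WT). *Hba-a1* turned to -0.499 in the livers labelled KO, -0.29 without both livers that stood apart and -0.262 without WT APAP replicate 1, the low end of a range up to 2.93 with 1 liver left out. *Saa1* turned to 0.0931 in the livers labelled KO, 1.25 without both livers that stood apart and 1.12 without WT vehicle replicate 2, with a low end of -1.7 when another liver was left out. *AY036118* turned to -9.67 in the livers labelled WT, to -2.33, -2.38 and -2.36 without each KO-labelled vehicle liver and to -0.0383 without KO-labelled APAP replicate 2, with up to 2.74 when another liver was left out.

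With 3 livers per label and treatment, the precision for small changes and for differences between labels is limited. Genes at a few counts with vehicle have folds that depend on the prior count. Gene-level counts cannot divide reads between near copies, and bulk RNA does not separate cell composition from expression per cell.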

Other observations

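Some short noncoding RNAs of the nucleus and nucleolus, chosen after their values were seen, were counted in these poly-A selected libraries. Of 85 small nucleolar RNAs tested 37 (43.5%) were higher, 0 lower and 48 not called, and of 9 small nuclear RNAs 7 were higher and 2 not called, beside 14.0% of all genes tested that were higher. *Rn7sk*, the RNA that holds the elongation factor P-TEFb inactive, was at 0.273, 0.411 and 0.621 CPM with vehicle and 16.5, 19.6 and 29.2 CPM with APAP (5.66 ± 0.23, adjusted p = 2.82e-08), without overlap. *Rmrp*, which takes part in ribosomal RNA processing, was at 0, 0.102 and 0.118 CPM with vehicle and 0.895, 1.37 and 1.79 CPM with APAP (4.19 ± 0.53, adjusted p = 0.000173). *Rpph1*, the RNA of RNase P, was at 0, 0.133 and 0.1996 CPM with vehicle and 2.22, 3.14 and 3.58 CPM with APAP (4.63 ± 0.41, adjusted p = 1.16e-05). Many small nucleolar RNAs lie in introns of other genes and can share reads with them.

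*Nfe2l2*, the gene of NRF2, chosen after its value was seen, gave a log2 fold change of 0.55 ± 0.09 (adjusted p = 0.000991). *Ifrd1*, a transcriptional coregulator, had the smallest p of all genes tested, with 10.8, 14.5 and 16.7 CPM with vehicle and 304, 338 and 417 CPM with APAP (4.59 ± 0.13, adjusted p = 3.98e-10).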
